A study of Rattus norvegicus with 6 samples.

Results

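The 9 genes described here make, branch, break down or control glycogen in the liver. They were measured by RNA-seq in healing rat liver, 14 days after an injury treated with a haemostatic dressing. They were taken by symbol from the deposited tables, where 9 of 9 were found among 20104 genes: Pgm1, Ugp2, Gyg1, Gys2, Gbe1, Ppp1r3b, Ppp1r3c, Pygl and Phka2. The dressing was AKOC in 3 libraries and Quik-clot, a commercial dressing that served as the control, in the other 3. AKOC is not spelled out in the labels, and the series title speaks of kaolin scales on cotton. All 6 libraries came from injured liver, and no uninjured liver is among these samples. The labels give no strain, sex, age, feeding state or hour of collection. They also do not say whether the libraries of a dressing came from separate animals. P-values therefore measure the spread between these libraries, which may be technical.

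The liver stores glucose after a meal as glycogen, a branched polymer, and releases it between meals. Phosphoglucomutase and UDP-glucose pyrophosphorylase prepare the activated sugar, glycogenin starts the chain, glycogen synthase lengthens it and the branching enzyme adds branch points. Glycogen phosphorylase removes glucose units again. Phosphorylase kinase switches phosphorylase on, and protein phosphatase 1, held on the glycogen particle by targeting subunits, reverses this and activates the synthase. These enzymes are controlled largely by phosphorylation and by metabolites, so transcript levels describe only their mRNA.

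In 4 of the 9 genes every AKOC library lay on one side of every Quik-clot library. Gbe1 (branching enzyme) was 2.17-fold, Pygl (liver phosphorylase) 1.89-fold and Pgm1 (phosphoglucomutase) 1.28-fold higher after AKOC, and Gys2 (liver glycogen synthase) was 1.49-fold lower. The libraries overlapped in Ugp2, Gyg1, Ppp1r3b, Ppp1r3c and Phka2. None of the 9 passed the edgeR quasi-likelihood test after Benjamini-Hochberg adjustment over the 13872 genes tested (adjusted p under 0.05), which called 0 genes (0%) in all. The 4 genes had an unadjusted p under 0.05 in edgeR, as had 1731 genes overall (12.5%). By direction, 3 of 9 members were higher and 1 of 9 lower, where 6.78% and 5.69% of all genes were (941 and 790 genes, or 452 and 750 when scaled by library totals only). Non-overlapping libraries occurred in 3 members higher and 1 lower, against 9.53% and 8.84% of all genes (18.4% together). The median log2 fold change of the members was 0.34, and that of all genes tested was -0.01. The member median is the value of Ppp1r3c, whose libraries overlapped. It ran from 0.04 (without AKOC replicate 3) to 0.43 (without AKOC replicate 1) over the alternative analyses. DESeq2, which called 280 genes (2.02%) in these counts, called Gbe1 (adjusted p = 0.00386, the lowest over 16 alternative analyses, which reached 0.644) and no other member, and limma-voom called 0 genes.

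For the 3 members that kept an unadjusted p under 0.05 in all 16 alternative analyses, the start region is shown to give their sequence context. Each runs from 250 bases before to 50 bases after the RefSeq start on GRCr8, 5′ to 3′ on the gene's strand. The Gys2 window is chr4:177137187-177137486 on the minus strand, the Pygl window chr6:94476170-94476469 on the minus strand and the Gbe1 window chr11:22181026-22181325 on the plus strand. Capitals mark a match to any of 6 motifs named below; the Pygl and Gbe1 windows held none.
Gys2: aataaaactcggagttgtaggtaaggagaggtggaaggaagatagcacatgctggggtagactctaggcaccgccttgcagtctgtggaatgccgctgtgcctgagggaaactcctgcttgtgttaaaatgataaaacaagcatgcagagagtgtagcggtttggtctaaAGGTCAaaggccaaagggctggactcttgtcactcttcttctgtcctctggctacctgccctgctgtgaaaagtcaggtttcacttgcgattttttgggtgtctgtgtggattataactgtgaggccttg
Pygl: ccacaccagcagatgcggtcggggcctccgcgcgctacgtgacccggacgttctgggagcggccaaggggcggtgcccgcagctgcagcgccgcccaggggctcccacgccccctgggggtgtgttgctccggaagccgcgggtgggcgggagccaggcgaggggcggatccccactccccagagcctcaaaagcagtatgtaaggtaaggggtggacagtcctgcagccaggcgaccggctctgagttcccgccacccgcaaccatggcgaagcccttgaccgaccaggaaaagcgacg
Gbe1: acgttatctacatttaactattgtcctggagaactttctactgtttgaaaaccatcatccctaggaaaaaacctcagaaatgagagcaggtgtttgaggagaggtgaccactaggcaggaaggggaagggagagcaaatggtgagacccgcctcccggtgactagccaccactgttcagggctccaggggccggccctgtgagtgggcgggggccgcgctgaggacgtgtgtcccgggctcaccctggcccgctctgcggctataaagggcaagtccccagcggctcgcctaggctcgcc

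RefSeq start regions were found for 8 of 9 members; Ppp1r3b had no entry. The motifs, searched on both strands, were the E-box CACGTG, the cAMP response element TGACGTCA and its core TGACG, the nuclear receptor core AGGTCA, the glucocorticoid receptor core AGAACA and the D-box core TTATG. The longer cAMP motif contains the shorter. The capitals in Gys2 are an AGGTCA that begins 80 bases before the start, a motif held by 16.2% of 33365 different rat start regions of the same length. CACGTG was found in Ppp1r3c and Gyg1, and in 6.43% of all. In Gyg1 it overlapped a TGACG, which occurred in no other member and in 21.2% of all. AGAACA occurred in Phka2 alone among the members and in 20.6% of all. TGACGTCA (1.83% of all) and TTATG (29.6% of all) occurred in 0 of 8 members. The windows also differed in base composition, with 48.7% G and C in Gys2, 58.7% in Gbe1 and 70.3% in Pygl, against a median of 51.7% over all start regions.

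**Figure D1:**
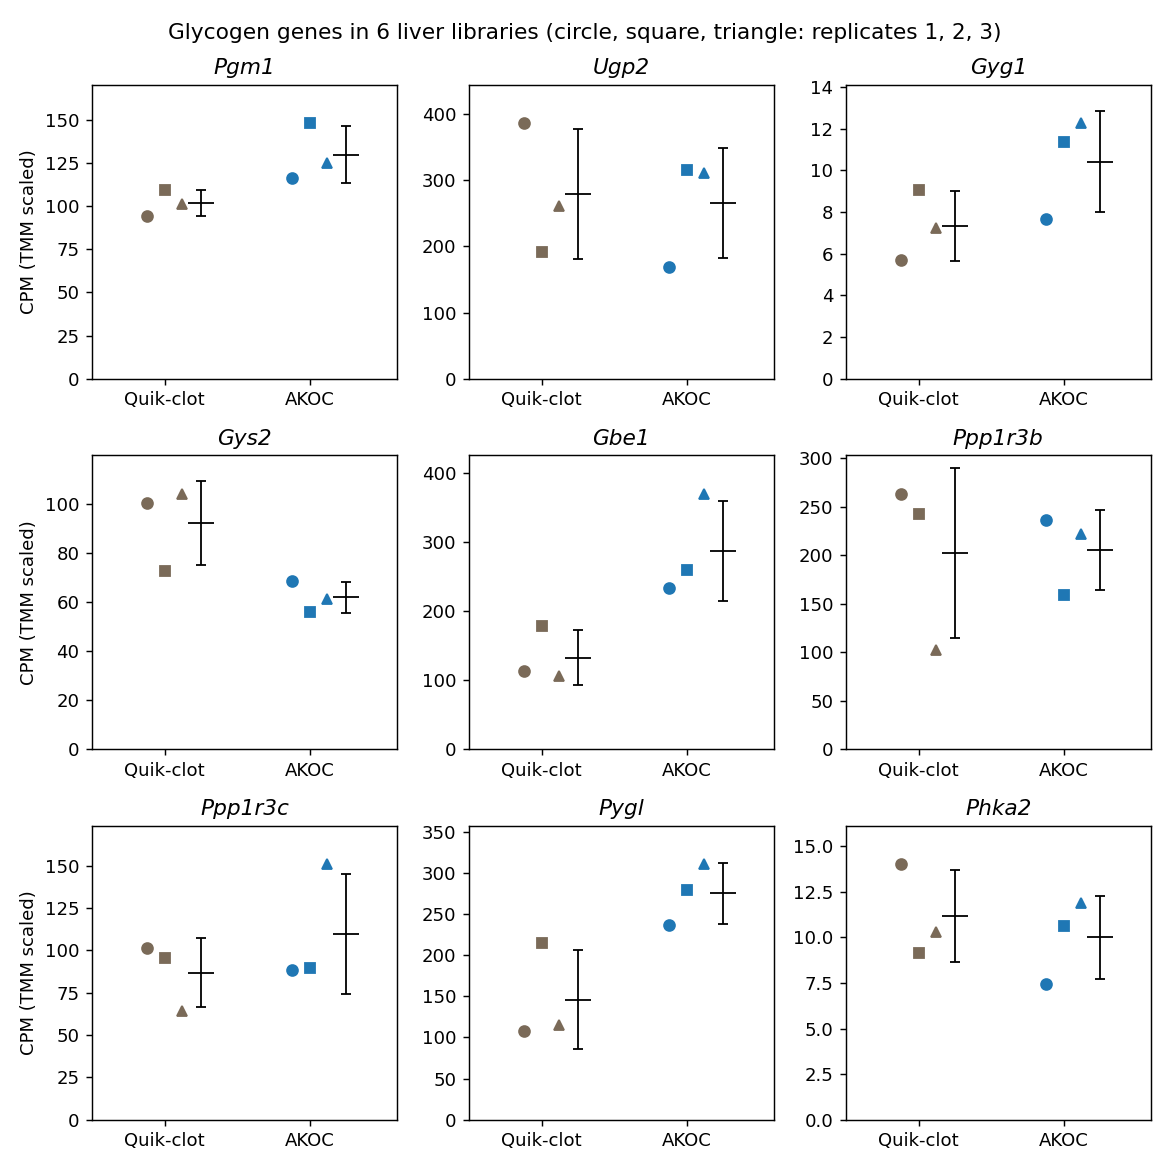
Level of each of the 9 glycogen genes (vertical axes, CPM after TMM scaling, each panel from 0) in the 3 Quik-clot and 3 AKOC libraries; points are libraries, with mean and SD beside them. Gbe1, Pygl, Pgm1 and Gys2 show no overlap between dressings, and the widest spread within Quik-clot, 2.59-fold, is in Ppp1r3b.

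Total counts were 40402312 to 41455378 per library. Of the hepatocyte markers, 10 of 10 were measured, with summed levels of 115380 to 160673 CPM after Quik-clot and 124031 to 186278 CPM after AKOC. Albumin (Alb) made up most of these sums, at 62633.5 to 90198.7 and 73731 to 122898 CPM. By log2 fold change 4 markers were positive and 6 negative, with a median of -0.15. Libraries did not overlap in 1 higher and 1 lower marker, against 9.53% and 8.84% of all genes. Skeletal muscle, which has glycogen enzymes of its own, was nearly absent: 6 of 12 markers were in the table, they summed to 0.202 to 0.486 CPM, and the muscle actin Acta1 was at 0 in 4 of 6 libraries. Quik-clot replicate 3 stood apart by its acute phase genes, and Quik-clot replicate 2 lay closer to AKOC replicate 1 (Spearman rho 0.979 across genes) than to Quik-clot replicates 1 and 3 (0.972 and 0.971). T and NK cell markers summed to 13.2 to 37.2 CPM after Quik-clot, with replicate 2 the highest, and to 9.79 to 12.3 CPM after AKOC, and endothelial markers to 407.7 to 468.9 and 358.9 to 402.3 CPM. Of the endothelial markers, 2 had positive and 5 negative log2 fold changes. These counts were 0 and 6 for the T and NK cell markers tested, 2 and 8 for macrophage and 4 and 1 for red cell markers. The sums of macrophage (837.3 to 1319.1 and 700.2 to 1018.9 CPM) and red cell markers (40.3 to 764.2 and 557.7 to 1244.3 CPM) overlapped. So did those of neutrophil, stellate cell, cholangiocyte and adipocyte markers. The part of these cell types in the glycogen results was not tested. In bulk tissue, fewer cells of a type and less RNA per cell cannot be told apart.

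Among the genes that supply activated glucose, Pgm1, which interconverts glucose phosphates, stood at 94.5, 109.5 and 101.1 CPM in Quik-clot replicates 1, 2 and 3 and at 116.7, 148.2 and 125.2 CPM in the AKOC replicates. The lowest AKOC value was only 1.06-fold above the highest Quik-clot value. Its log2 fold change was 0.35 ± 0.13 (SE; edgeR adjusted p = 0.361). Ugp2, which makes UDP-glucose, the substrate of the synthase, stood at 386.5, 191.9 and 260.5 CPM in the Quik-clot libraries (replicates 1 to 3) against 169.3, 315.1 and 311.3 CPM in the AKOC libraries. Replicate 1 was the highest library of Quik-clot and the lowest of AKOC, and the dressings overlapped throughout. The log2 fold change was -0.08 ± 0.32 (SE; edgeR adjusted p = 0.931), and leaving out replicate 1 of Quik-clot (0.23) or of AKOC (0.16) turned its sign.

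Gyg1, which encodes the primer protein glycogenin, was low, at 5.68, 9.08 and 7.21 CPM in the Quik-clot libraries (replicates 1 to 3) against 7.66, 11.3 and 12.3 CPM in the AKOC libraries. AKOC replicates 2 and 3 were above all Quik-clot libraries, and AKOC replicate 1 lay among them. Its log2 fold change was 0.51 ± 0.24 (SE; edgeR adjusted p = 0.427).

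Gys2, the liver form of the chain-lengthening enzyme, stood at 100.5, 72.8 and 104.3 CPM in Quik-clot replicates 1, 2 and 3 and at 68.6, 56.1 and 61.2 CPM in the AKOC replicates. It was the only member lower in every AKOC library than in every Quik-clot library, with Quik-clot replicate 2 1.06-fold above the highest AKOC value. The mean was 92.5 ± 17.2 CPM after Quik-clot and 61.97 ± 6.32 CPM after AKOC (SD, n = 3 each). The log2 fold change was -0.58 ± 0.16 (SE; edgeR adjusted p = 0.308). The isoform found mainly in muscle, Gys1, stood at 2.22 to 2.98 CPM in the 6 libraries, with a log2 fold change of -0.04 ± 0.21. On the length-scaled FPKM, Gys2 made up 97.9 to 98.3% of the synthase transcripts after Quik-clot and 97.0 to 97.3% after AKOC.

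Gbe1, which makes the branch points, had the largest difference among the 9 members. It stood at 113.2, 177.8 and 106.3 CPM in the Quik-clot libraries (replicates 1 to 3) against 234.1, 258.8 and 369.9 CPM in the AKOC libraries. The lowest AKOC library was 1.32-fold above the highest Quik-clot library, the widest gap of any member. The log2 fold change was 1.12 ± 0.25 (SE; edgeR adjusted p = 0.281). Without AKOC replicate 3, the highest library, it was 0.90. Gys2 and Gbe1, which act together on the growing polymer, thus lay on opposite sides. Gbe1 FPKM were 0.792, 1.72 and 0.716 times those of Gys2 in the Quik-clot libraries and 2.40, 3.25 and 4.25 times in the AKOC libraries. This ratio adds no separate result, since each gene alone separated the dressings, in opposite directions.

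Pygl, the enzyme that releases glucose units, stood at 107.3, 215.02 and 115.2 CPM in Quik-clot replicates 1, 2 and 3 and at 236.3, 279.0 and 310.4 CPM in the AKOC replicates. Quik-clot replicate 2 was about level with AKOC replicate 1, which exceeded it 1.10-fold, and the other Quik-clot libraries were far lower. The means were 145.8 ± 60.1 and 275.2 ± 37.2 CPM (SD, n = 3 each), and the log2 fold change was 0.92 ± 0.28 (SE; edgeR adjusted p = 0.317). It was 1.31 without Quik-clot replicate 2 and 0.74 without Quik-clot replicate 1. The brain form Pygb (5.40 to 7.84 CPM; log2 fold change 0.01 ± 0.18) and the muscle form Pygm (0.239 to 0.774 CPM; 0.60 ± 0.49) were minor. By FPKM, Pygl made up 96.1 to 97.4% of phosphorylase transcripts after Quik-clot and 98.0 to 98.3% after AKOC.

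The ratio of Pygl to Gys2 combined the differences of these genes. It covers this pair alone, and Gbe1, also an enzyme of synthesis, was higher after AKOC. Pygl FPKM were 1.01, 2.80 and 1.05 times Gys2 FPKM in Quik-clot replicates 1, 2 and 3 and 3.27, 4.72 and 4.81 times in the AKOC replicates. On the log2 scale this difference was 0.52 ± 0.83 after Quik-clot and 2.07 ± 0.31 after AKOC (SD, n = 3 each). The dressings had to separate in this ratio, since each gene alone separated them by FPKM, in opposite directions. Quik-clot replicate 2 again lay nearest to AKOC. With 3 libraries a side the smallest two-sided p of an exact permutation test is 0.1, so no test was made of this ratio.

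**Figure D2:**
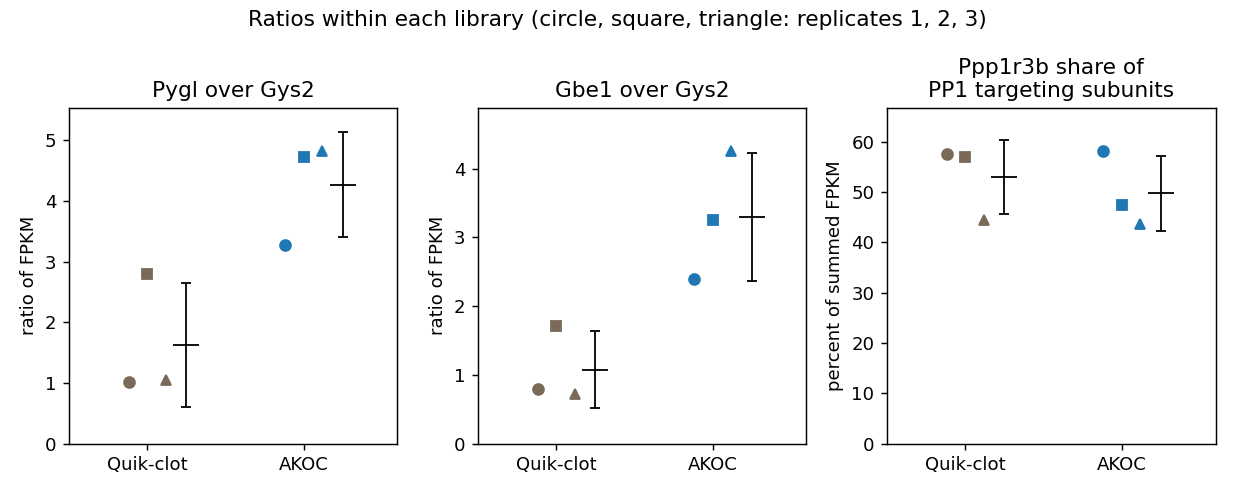
Ratio of Pygl to Gys2 FPKM, ratio of Gbe1 to Gys2 FPKM, and Ppp1r3b as a percent of the summed FPKM of the targeting subunits, by library (points) with mean and SD. Both ratios are higher in all AKOC libraries (Pygl over Gys2 3.27 to 4.81 against 1.01 to 2.80), which follows from the separation of each gene alone. The Ppp1r3b share overlaps (44.5 to 57.5% with Quik-clot, lowest AKOC library 43.6%).

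The regulatory members overlapped between dressings in every case. Ppp1r3b, the targeting subunit prominent in liver, stood at 263.5, 242.4 and 101.8 CPM in the Quik-clot libraries (replicates 1 to 3) against 236.2, 158.7 and 222.1 CPM in the AKOC libraries. Quik-clot replicate 3 was the lowest library, and the log2 fold change of 0.02 ± 0.34 (SE; edgeR adjusted p = 0.984) became -0.30 without it and -0.09 when scaled by library totals only. That library also had the highest acute phase genes: the 18 listed genes summed to 187158 CPM there and to 66900 to 145011 CPM in the other libraries. AKOC replicate 2, second in that sum, had the second lowest Ppp1r3b; the part of the acute phase in this was not tested.

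Ppp1r3c, a more widely expressed targeting subunit, stood at 101.3, 95.5 and 63.95 CPM in the Quik-clot libraries (replicates 1 to 3) against 88.4, 89.7 and 150.8 CPM in the AKOC libraries. Only AKOC replicate 3 exceeded the Quik-clot range. Its log2 fold change of 0.34 ± 0.26 (SE; edgeR adjusted p = 0.610) was 0.04 without AKOC replicate 3. By FPKM, Ppp1r3b and Ppp1r3c made up nearly all transcripts of the 6 targeting subunits compared, with Ppp1r3c at 41.2, 41.7 and 52.0% after Quik-clot and 40.5, 49.9 and 55.2% after AKOC. Ppp1r3d and Ppp1r3g, the next most abundant, reached at most 1.77% and 1.71%.

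Phka2, the liver regulatory subunit of phosphorylase kinase, stood at 14.02, 9.17 and 10.3 CPM in the Quik-clot libraries (replicates 1 to 3) against 7.45, 10.7 and 11.9 CPM in the AKOC libraries. The dressings overlapped, with replicate 1 the highest library of Quik-clot and the lowest of AKOC, as in Ugp2. The log2 fold change was -0.16 ± 0.23 (SE; edgeR adjusted p = 0.792) and was positive when replicate 1 of Quik-clot (0.04) or of AKOC (0.01) was left out. Phka1, the other alpha subunit, contributed enough that Phka2 held only 55.6 to 65.3% of their summed FPKM after Quik-clot and 42.3 to 57.7% after AKOC. By CPM Phka1 was higher in every AKOC library (3.15 to 4.04 against 2.73 to 2.96), as were 9.53% of all genes. By FPKM, Phka1 overlapped between dressings (0.608 to 0.931 with AKOC, 0.526 to 0.709 with Quik-clot). Its log2 fold change was 0.31 ± 0.18 (SE, edgeR adjusted p = 0.509).

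Levels between genes were compared on the length-scaled FPKM. After Quik-clot the order was Ugp2 at 124.4 ± 52.9, Pygl at 55.8 ± 25.3, Ppp1r3b at 42.04 ± 21.2, Pgm1 at 38.3 ± 4.74, Gbe1 at 37.6 ± 13.1, Gys2 at 36.8 ± 6.74 and Ppp1r3c at 33.1 ± 10.7 FPKM (mean ± SD, n = 3), followed by Gyg1 at 4.02 ± 1.01 and Phka2 at 0.986 ± 0.302 FPKM. From Pygl to Ppp1r3c the libraries of neighbouring genes overlapped, so their order was not resolved. After AKOC the order was Ugp2 at 108.7 ± 26.7, Pygl at 98.5 ± 8.80, Gbe1 at 76.2 ± 17.2, Pgm1 at 46.1 ± 2.75, Ppp1r3b at 39.6 ± 10.9, Ppp1r3c at 38.7 ± 11.8, Gys2 at 23.7 ± 4.62, Gyg1 at 5.37 ± 0.909 and Phka2 at 0.820 ± 0.138 FPKM. Ugp2, Pygl and Gbe1 overlapped with their neighbours there, but all Gbe1 values lay above all Pgm1 values. Every Gys2 value after AKOC lay below every Ppp1r3c value.

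Of 29 further genes of glycogen metabolism listed, 25 were tested. There were 13 with positive and 12 with negative log2 fold changes, the median was 0.01, and 0 passed the edgeR adjustment. With unadjusted p below 0.05, 0 were higher and 1 was lower, against 6.78% and 5.69% of all genes. That gene was Epm2a, which encodes laforin, a phosphatase that removes phosphate from glycogen and is mutated in Lafora disease. It stood at 1.76, 1.44 and 1.73 CPM in the Quik-clot libraries (replicates 1 to 3) against 0.449, 0.320 and 0.574 CPM in the AKOC libraries, from 81, 63 and 64 counts and 20, 12 and 22 counts. Each Quik-clot library was above each AKOC library, and the log2 fold change was -1.87 ± 0.31 (SE; edgeR adjusted p = 0.234; DESeq2 adjusted p = 0.000705, the one call in 16 alternatives). Nhlrc1, which encodes malin, the partner of laforin, overlapped between dressings at 3.30 to 4.72 and 2.19 to 4.30 CPM.

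Of 9 genes through which glucose enters and leaves the pathway, 1 was higher and 2 were lower at an unadjusted p under 0.05 in edgeR, where 6.78% and 5.69% of all genes were. Gckr had a log2 fold change of 1.21 ± 0.31, Slc2a2, the liver glucose transporter, -0.58 ± 0.16 and the hexokinase Hk2 -0.98 ± 0.41 (edgeR adjusted p = 0.295, 0.305 and 0.391). DESeq2 called Gckr (adjusted p = 0.00925) and Slc2a2 (adjusted p = 0.0494), each in that 1 of 16 alternatives. Hk2 ran from -1.25 to -0.33 over the alternatives and had an unadjusted p under 0.05 in 6 of 16. It was low, at 1.48, 4.10 and 1.81 CPM in Quik-clot replicates 1, 2 and 3. In the AKOC replicates it stood at 1.12, 1.39 and 1.23 CPM. Slc2a2 stood at 510.8, 365.3 and 489.5 CPM in the Quik-clot libraries (replicates 1 to 3) against 299.7, 311.9 and 301.8 CPM in the AKOC libraries, a difference of the same size as that of Gys2. G6pc1, which frees glucose for export, overlapped at 130.2 to 589.9 and 209.4 to 491.7 CPM and was highest in Quik-clot replicate 3.

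Of 24 tested receptors and kinases of glycogen control, 2 were higher and 1 was lower at an unadjusted p under 0.05, together a share equal to the 12.5% of all genes. The vasopressin receptor Avpr1a had a log2 fold change of 0.62 ± 0.24, the protein kinase A subunit Prkaca 0.37 ± 0.15 and the adenylate cyclase Adcy9 -0.54 ± 0.19 (edgeR adjusted p = 0.384, 0.385 and 0.363). They had an unadjusted p under 0.05 in 9, 7 and 9 of 16 alternatives. Of these 3, Adcy9 did not overlap between dressings and the others did. The glucagon receptor Gcgr stood at 62.8 to 68.2 CPM after Quik-clot and 66.7 to 82.8 CPM after AKOC, and the insulin receptor Insr at 78.7 to 113.3 and 77.8 to 105.2 CPM.

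The list medians of feeding-raised and clock genes separated the dressings, and that of fasting-raised genes did not. Of 12 genes known to rise on feeding, 7 were higher and 1 lower at an unadjusted p under 0.05, where 6.78% and 5.69% of all genes were. Their median level, as log2 CPM against the mean of the 6 libraries, was -0.88, -0.13 and -0.61 in Quik-clot replicates 1, 2 and 3 and 0.22, 0.32 and 0.89 in the AKOC replicates. The lipid desaturase Scd had a log2 fold change of 5.29 ± 0.89 and pyruvate kinase Pklr one of 1.82 ± 0.34 (edgeR adjusted p = 0.234 and 0.244). Within Quik-clot the list median was highest in replicate 2, whereas Scd was highest in replicate 3 (178.4 CPM against 164.6 CPM). Of 11 tested genes known to rise on fasting, 0 were higher and 1 lower, and their medians overlapped (-0.27, -0.23 and 0.49 against -0.27, 0.12 and -0.15). Of 19 clock genes 3 were higher and 11 lower, with medians of 0.28, 0.09 and 0.45 after Quik-clot and -0.07, -0.17 and -0.35 after AKOC. Bmal1 (1.96 ± 0.26) and Dbp (-2.20 ± 0.37) were among them (edgeR adjusted p = 0.216 and 0.234). Of the clock genes 8 had positive and 11 negative log2 fold changes, so the clock median depends on which genes were listed. The gene lists were chosen with earlier results of these data known, so these counts only describe the lists. The part of feeding, hour or acute phase in the glycogen differences was not tested.

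**Figure D3:**
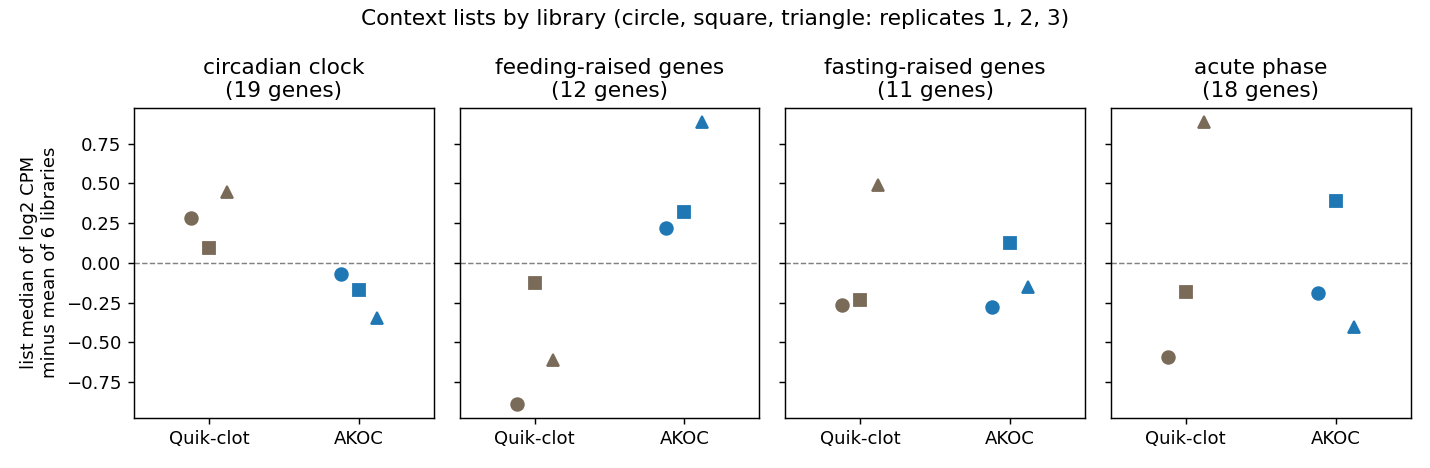
Median of each list by library (vertical axis, log2 CPM minus the mean over 6 libraries) for clock, feeding-raised, fasting-raised and acute phase genes; points are libraries. Clock and feeding-raised medians separate the dressings, whereas fasting-raised and acute phase medians overlap, with Quik-clot replicate 3 the highest in both. The clock list mixes genes of opposite direction, and its nearest libraries lie at 0.09 (Quik-clot replicate 2) and -0.07 (AKOC replicate 1).

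Genes with a pattern most like that of a member were sought among 6928 genes with a mean of at least 10 CPM. Genes with provisional symbols (LOC or RGD numbers, AABR and Rik names) were left out. Likeness was the root mean square difference, over the 6 libraries, of log2 CPM centred on each gene's mean. Nearest to Gys2 were Srebf2 (0.07), Tns1 (0.07) and Larp4 (0.08). Nearest to Pygl were Pld1 (0.10), Kynu (0.10) and Bbox1 (0.11). Nearest to Ppp1r3b were Gstm7 (0.18), Paqr7 (0.20) and Smtn (0.20), so its pattern had no match as close among the genes searched.

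**Figure D4:**
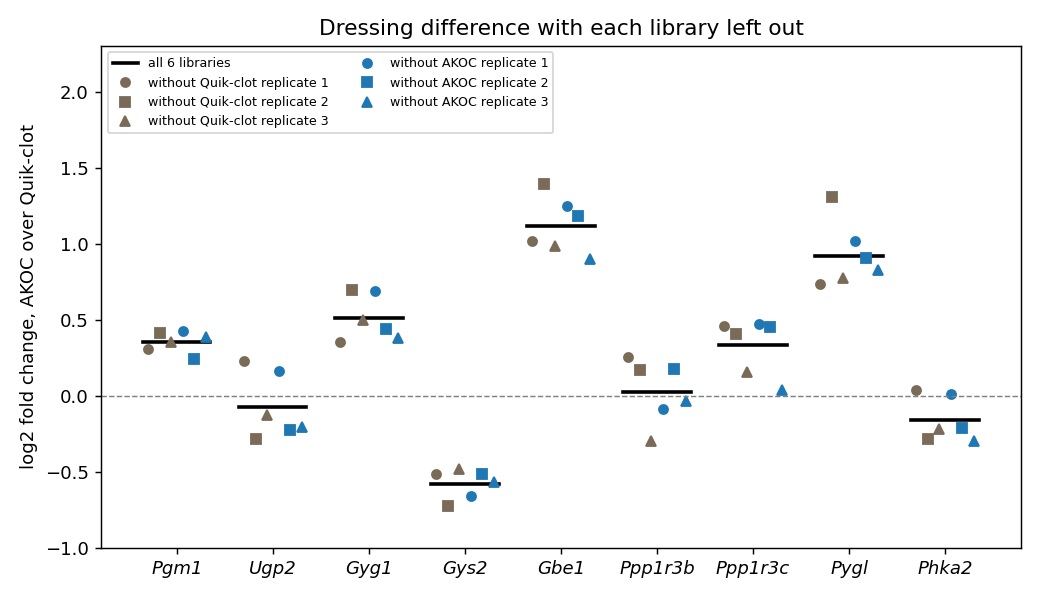
Log2 fold change, AKOC over Quik-clot (vertical axis), of each member with all 6 libraries (bar) and with each library left out (points). Gys2 stays between -0.72 and -0.48, Gbe1 between 0.90 and 1.39 and Pygl between 0.74 and 1.31, while Ugp2, Ppp1r3b and Phka2 cross 0.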

How the data were processed

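RNA-seq gave 6 rat liver libraries, 3 per dressing, grouped by the labels. The authors deposited whole-number read counts per gene and, for the same genes, FPKM (fragments per kilobase of transcript and 1e6 fragments). The submitters' processing notes list fastp, HISAT2, HTSeq and mRatBN7.2. Versions, annotation, strand setting and FPKM formula: not given in the sources used here. The deposited FPKM equal the share of a library's counts times a constant per gene (relative spread at most 1.12e-06), so they carry no TMM scaling.

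Genes were kept by filterByExpr (minimum count 10, minimum total 15), scaled by TMM (factors 0.902 to 1.12) and tested with the edgeR 4.0.16 quasi-likelihood method in R 4.3.3, two-sided, dressing as the only term, Benjamini-Hochberg over all 13872 genes. SE is the size of the log2 fold change over the square root of F. CPM are counts per 1e6 after TMM. Centred log2 CPM used a prior count of 2. The test was checked on simulated data in which all genes shared the same dispersion (spread beyond counting noise). Genes differed in dispersion in the real counts, so the check does not settle how the test performs on them. Alternatives were DESeq2 1.42.0, limma 3.58.1 (voom with sample weights; trend on log2 FPKM with pseudocounts 1 and 0.1), other scalings and filters, the replicate number as a block and each library left out. The legacy quasi-likelihood method was added after seeing the data.

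The members and gene lists were chosen with earlier results of these data known. Named genes are the 9 members, their isoforms and the main entry and exit genes, pathway-list genes at an unadjusted p under 0.05, at most 3 of smallest p from each context list, and the nearest patterns. Nhlrc1, Phka1, Ppp1r3d, Ppp1r3g, Gcgr, Insr, Acta1 and Alb were added after their values were seen. Some genes that this rule names are not reported here. Start regions are from RefSeq, GRCr8, matched by gene ID and symbol. Libraries held 40402312 to 41455378 counts, which gave each member at least 261 counts per library.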

Additional observations from a re-analysis of the deposited data

How the results depend on the processing

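Gys2, Gbe1 and Pygl kept their direction and an unadjusted p under 0.05 in 16 of 16 alternatives, and Pgm1 in 10 of 16 for the latter. Over all alternatives the log2 fold changes ran from -0.72 to -0.48 (Gys2), 0.90 to 1.39 (Gbe1), 0.74 to 1.31 (Pygl) and 0.24 to 0.43 (Pgm1). The adjusted p ran from 0.0930 to 0.644 for Gys2, 0.0543 to 0.644 for Pygl and 0.00386 to 0.644 for Gbe1. Members at an unadjusted p under 0.05 numbered 3 to 5, and other glycogen genes 1 to 4.

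DESeq2 called 280 genes, 1 member (Gbe1, log2 fold change 1.12, adjusted p = 0.00386) and 1 other glycogen gene (Epm2a), where edgeR called 0; the cause was not tested. With each library left out, edgeR called 0 to 18 genes, most without Quik-clot replicate 2 (18) and AKOC replicate 1 (10), and 0 members. Genes at an unadjusted p under 0.05 then numbered 1080 (without AKOC replicate 3) to 2460 (without Quik-clot replicate 2), and 1126 and 1149 with limma-trend on log2 FPKM with pseudocounts 1 and 0.1. With library totals only there were 452 higher and 750 lower, against 941 and 790.

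Leaving out replicate 1 of Quik-clot or of AKOC made Ugp2 positive (0.23 and 0.16) and Phka2 as well (0.037 and 0.012). Left-out libraries gave -0.29 to 0.23 for Ugp2, -0.30 to 0.037 for Phka2 and -0.30 to 0.26 for Ppp1r3b. Ppp1r3b was negative with library totals only (-0.086), and when replicate 3 of Quik-clot (-0.30) or replicate 1 (-0.090) or 3 (-0.034) of AKOC was left out.

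With the replicate block, edgeR called 1 gene and 0 members, and 5 members had an unadjusted p under 0.05. Deviations of same-numbered libraries correlated at -0.07, -0.08 and -0.20 across genes, so the numbers were not taken to pair the samples.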
